A study of Mus musculus with 11 samples.

Results

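Macrophages are a main source of secreted growth and angiogenic factors in tissues under repair and in tumours. Messenger RNA for 10 such factors (Vegfa, Pdgfa, Pdgfb, Pdgfc, Hbegf, Tgfb1, Igf1, Hgf, Areg and Grn) was followed in macrophages sorted from mouse mammary tumours. The factors were chosen by gene symbol, and all 10 of 10 were found among the 17475 genes of the expression table. Tumours came from 6 female mice, and 11 libraries were sequenced. The groups were tumour-associated macrophages (TAMs) of MYC-PyMT mice (3 libraries, mice 2, 4 and 6), TAMs of control-PyMT mice (3 libraries, mice 1, 3 and 5), mammary tissue macrophages (MTMs; the labels give the abbreviation alone) of MYC-PyMT mice (2 libraries, mice 2 and 4) and MTMs of control-PyMT mice (3 libraries, mice 1, 3 and 5).

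All mice carried PyMT, the polyoma middle T oncogene that drives mammary tumours, on a strain backcrossed to B6. MYC-PyMT mice also carried S100a8-cre and Rosa26-LSL-MYC, so that Cre driven by the S100a8 promoter, which is best known from neutrophils and other myeloid cells, removes a stop in front of a MYC transgene. Every mouse, controls included, was lethally irradiated at 7 weeks of age and received bone marrow cells of wild-type B6 mice (3 M, for mega). A low protein diet began 2 weeks later in every mouse and lasted 6 weeks. Blood cells that grew from that marrow lack the transgenes, while host cells that outlasted the irradiation keep them, and the labels do not say which of these the sorted cells were. TAMs were sorted as F4/80 positive and Vcam positive, and MTMs as F4/80 positive, Vcam negative and FOLR2 positive, both from CD45 positive cells negative for SiglecF, Ly6G, B220 and Ly6C.

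The factors act on neighbouring cells through a few receptor families. Vegfa drives the growth and leakiness of blood vessels through Flt1 and Kdr on endothelium, and the PDGF ligands recruit pericytes and fibroblasts through Pdgfra and Pdgfrb. Hbegf and Areg are membrane-anchored EGF receptor ligands that proteases of the ADAM family shed from the cell surface. Tgfb1 is secreted in a latent form that integrins and proteases activate, Igf1 is held by binding proteins, Hgf is cut into its active form and signals through Met, and Grn encodes progranulin, a secreted protein that also enters lysosomes.

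Sequence is shown for the promoters of Areg and Grn, which with Hbegf had the widest spans between group means and for which a promoter window was at hand. The windows run from 250 bases before to 50 bases after the RefSeq start site on GRCm38.p6. Areg lies on the plus strand at chr5:91139349-91139648, and Grn on the plus strand at chr11:102430257-102430556. Capitals mark the letters of motifs searched on both strands.
Areg: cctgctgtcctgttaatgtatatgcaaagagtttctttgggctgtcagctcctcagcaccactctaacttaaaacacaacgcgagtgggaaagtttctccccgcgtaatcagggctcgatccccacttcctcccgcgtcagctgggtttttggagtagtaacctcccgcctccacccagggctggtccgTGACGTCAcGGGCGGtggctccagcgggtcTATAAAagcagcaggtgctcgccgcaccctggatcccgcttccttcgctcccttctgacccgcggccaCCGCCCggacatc
Grn: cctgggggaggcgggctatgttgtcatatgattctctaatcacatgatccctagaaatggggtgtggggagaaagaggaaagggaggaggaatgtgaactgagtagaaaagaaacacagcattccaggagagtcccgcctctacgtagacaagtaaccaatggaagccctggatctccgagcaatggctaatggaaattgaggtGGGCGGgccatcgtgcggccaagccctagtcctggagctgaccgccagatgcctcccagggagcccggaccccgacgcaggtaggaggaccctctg
In the Areg window the letters TGACGTCA, the cAMP response element, begin at position -61 from the start site, GGGCGG (an SP1-type GC box) at -52, TATAAA at -31 and CCGCCC, which is GGGCGG read on the other strand, at 38. The Grn window holds GGGCGG at -46. Of 32851 windows of the same length, 1.79% hold TGACGTCA, 35.7% hold GGGCGG and 8.32% hold TATAAA. The further motifs searched were TGANTCA (7.81% of windows), CACGTG (7.15%) and ACGTG (19.6%, and contained in CACGTG), and none of these letters stands in either window. A match describes the letters and does not show binding.

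Values are the deposited log2 levels, which behave as the log2 of a depth- and length-scaled read number plus about 1, so differences of low genes are understated on this scale. From the spacing of the lowest values, the libraries held about 32.8 to 43.5 M reads in genes. Such read numbers bear on counting error only. The ± values below are standard errors from limma, which rest on the spread between libraries. In these sorted bulk samples, fewer cells of a type and less RNA per cell cannot be told apart.

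In Vcam1 RNA, the libraries labelled MYC TAM stood apart from their gate, and so did control MTMs, which were sorted as Vcam negative. Vcam1 was lower in MYC than in control mice in both cell types. Vcam1, the gene of the surface protein used to sort TAMs, was at 0.96, 1.61 and 2.82 in the libraries labelled MYC TAM (mice 2, 4 and 6), against 8.60, 7.64 and 8.57 in control TAMs, 2.32 and 2.31 in MYC MTMs and 5.31, 6.86 and 5.25 in control MTMs. Folr2, which marks MTMs, was at 1.07, 1.44 and 3.62 in the libraries labelled MYC TAM, against 0.96 to 1.77 in control TAMs, and at 8.07 and 8.45 in MYC MTMs, against 7.67 to 8.05 in control MTMs. Csf1r, the receptor for the macrophage growth factor M-CSF, was at 7.59 to 8.09 in the libraries labelled MYC TAM and 10.3 to 10.7 in control TAMs, while Cd68, a lysosomal macrophage protein, was at 10.2 to 10.4 in the libraries labelled MYC TAM and 8.17 to 8.51 in control TAMs. None of the 10 macrophage markers was near 0 in any library. Myc itself was at 1.78 to 2.16 in the libraries labelled MYC TAM, 2.66 to 3.18 in control TAMs, 2.87 and 3.02 in MYC MTMs and 2.53 to 2.75 in control MTMs, and since the species of the transgene is not given this does not check the label. The library labelled MYC TAM of mouse 4 had 576 genes without a read among those checked, against 2059 to 3502 in the other 10 libraries. Its estimated depth was the lowest of all libraries, at 32.8 M reads in genes.

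Marker RNA of other cell types was present in all groups, but not that of every cell type. In the libraries labelled MYC TAM of mice 2 and 6, all 7 dendritic cell markers lay below 0.1. Epithelial markers (12 of 14 measured) had a log2 summed level of 5.19 to 8.53 in libraries labelled MYC TAM, 8.88 to 10.1 in control TAMs, 8.38 to 8.51 in MYC MTMs and 8.48 to 9.53 in control MTMs, and none of the 12 was near 0 in any library. T and NK markers (9 of 9 measured) summed to 0.75 to 2.03 in libraries labelled MYC TAM, 5.28 to 6.76 in control TAMs, 2.45 to 4.35 in MYC MTMs and 5.35 to 5.60 in control MTMs, and Cd3e was without reads in all 3 libraries labelled MYC TAM. In TAMs, MYC against control, 0 epithelial markers were higher and 7 lower past the test described below, 0 and 6 of the T and NK markers and 2 and 6 of the 10 macrophage markers. Fibroblast markers summed to 1.47 to 2.86 in libraries labelled MYC TAM and 3.03 to 4.15 in control TAMs, with 0 higher and 1 lower of 9. The same comparison had 0 higher and 1 lower of 7 endothelial markers, 0 and 0 of 6 pericyte and smooth muscle markers, 0 and 2 of 4 B cell markers, 3 and 0 of 6 neutrophil markers, 1 and 1 of 7 mast cell, basophil and eosinophil markers, 1 and 1 of 3 platelet markers and 0 and 2 of 7 dendritic cell markers.

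Across the 11 libraries 1 factor was abundant and 9 were at modest levels. Grn averaged 8.53, above 99.3% of all genes measured. Next came Hgf at 2.97, Igf1 at 2.39, Pdgfa at 2.13, Pdgfc at 1.91, Hbegf at 1.51, Tgfb1 at 1.50, Pdgfb at 0.97, Areg at 0.87 and Vegfa at 0.64, the last above 39.3% of genes. These levels are per length of gene, so that they can be set side by side. Estimated reads per library ran from 25887 to 64542 for Grn, from 30 to 150 for Vegfa and from 0 to 177 for Areg, so the last of these rests on few reads. Between groups, the span of the group means was widest for Hbegf (1.65), Areg (1.13) and Grn (1.00) and narrowest for Tgfb1 (0.30) and Vegfa (0.35).

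None of the 10 factors passed the test in any of the 5 comparisons. These set MYC against control mice within TAMs and within MTMs, and TAMs against MTMs within either genotype, with the change of that last difference between the genotypes as the fifth. The test was limma's moderated test on all 11 libraries and 17475 genes, with Benjamini-Hochberg adjustment and a threshold of 0.05. As background, 15.9% of all genes passed for MYC against control in TAMs, 0.618% in MTMs, 4.49% for TAMs against MTMs in MYC mice, 2.37% in control mice and 1.24% for the difference of differences. The smallest adjusted p among the 50 tests of the factors was 0.0911, for Hbegf in TAMs. An unadjusted p under 0.05 was reached by 3 of the 50 tests. In TAMs, MYC against control, it was reached by 1 factor of 10, Hbegf, where 27.9% of all genes reached it. Grn reached it in MTMs, MYC against control (10.1% of all genes), and in TAMs against MTMs of MYC mice (16.8% of all genes). None reached it for TAMs against MTMs in control mice (11.8% of all genes) or for the difference of differences (10.9%).

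**Figure D1:**
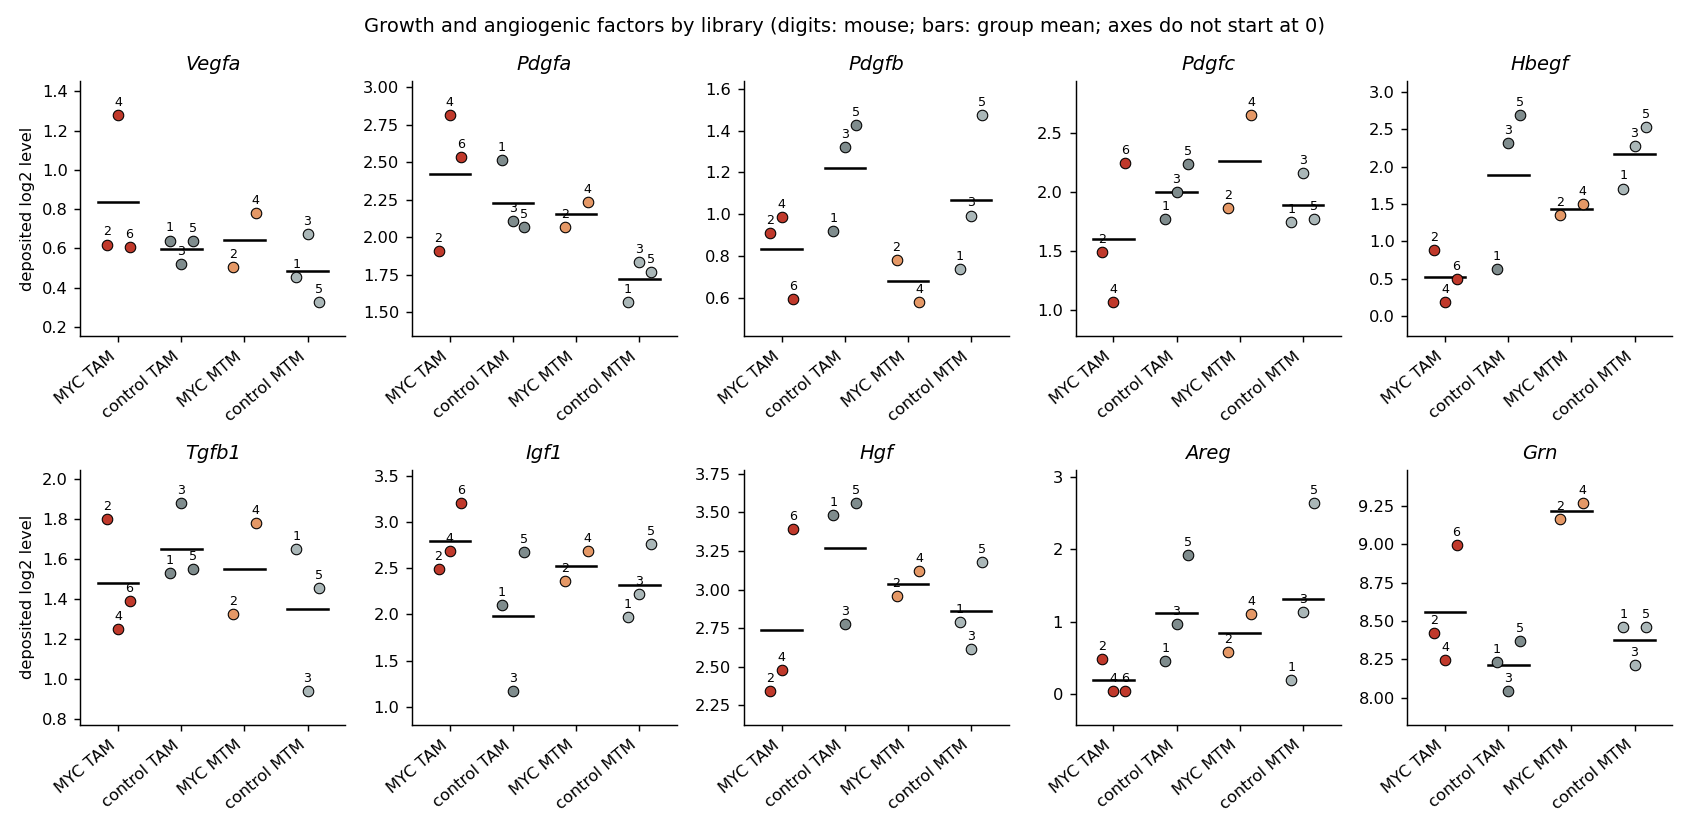
Deposited log2 level of each factor (vertical axis, own scale per gene) in the 11 libraries, grouped along the horizontal axis; points are libraries with the mouse number above, bars are group means. Grn lies near 9.2 in both MYC MTM libraries, and the libraries labelled MYC TAM hold the 2 lowest Areg values (0.04 each) and the 2 lowest Hbegf values (0.18 and 0.50).

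Of the EGF receptor ligands, Hbegf had the largest difference of any factor. Hbegf (chr18:36504927-36515805, minus strand, GRCm38) was at 0.89, 0.18 and 0.50 in the libraries labelled MYC TAM of mice 2, 4 and 6, against 0.64, 2.32 and 2.70 in control TAMs of mice 1, 3 and 5. In MTMs it was at 1.36 and 1.50 in MYC mice 2 and 4, against 1.71, 2.28 and 2.53 in control mice 1, 3 and 5. The libraries labelled MYC TAM were low together, control TAMs were high in mice 3 and 5 and low in mouse 1, and the TAM groups overlapped because of that 1 control library. MYC MTMs all lay below control MTMs and above the libraries labelled MYC TAM.

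The group means of Hbegf were ordered control MTM (2.17), control TAM (1.88), MYC MTM (1.43) and MYC TAM (0.52), and only the last of these neighbours did not overlap. MYC minus control in TAMs was -1.36 ± 0.48 (SE; 95% interval -2.44 to -0.28), which corresponds to 0.390 times the control level on the scale of the level plus 1, with an adjusted p by limma of 0.0911. Without control TAM mouse 1 the difference was -1.98 with an adjusted p of 0.00497, and with only the genes of a mean level of 1 or more tested the adjusted p was 0.0482. Without control TAM mouse 5 the difference was -0.95 (adjusted p by limma 0.280). Without the library labelled MYC TAM of mouse 4 it was -1.19 (0.235). In MTMs, MYC minus control was -0.74 ± 0.54 (interval -1.95 to 0.46). TAM minus MTM was -0.91 ± 0.54 in MYC mice and -0.29 ± 0.48 in control mice. In control mice it was 0.33 without TAM mouse 1.

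Areg (chr5:91139599-91148432, plus strand) had no reads in 2 libraries, both labelled MYC TAM. It was at 0.48, 0.04 and 0.04 in the libraries labelled MYC TAM of mice 2, 4 and 6, against 0.46, 0.97 and 1.92 in control TAMs of mice 1, 3 and 5. MTMs had 0.58 and 1.11 in MYC mice 2 and 4, against 0.19, 1.14 and 2.63 in control mice 1, 3 and 5. In reads this was about 14, 0 and 0 in the libraries labelled MYC TAM, against 12, 34 and 98 in control TAMs, and 17 and 42 in MYC MTMs, against 4, 44 and 177 in control MTMs. A count of 0 allows up to 3 reads, which would be a level of 0.18 in mouse 4 and 0.14 in mouse 6. The TAM groups overlapped narrowly, since mouse 2 (MYC) was just above mouse 1 (control).

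Control mice differed from each other in Areg more than the groups did: in both cell types mouse 1 was lowest and mouse 5 highest. MYC minus control was -0.93 ± 0.56 in TAMs (interval -2.19 to 0.34, adjusted p by limma 0.338) and -0.47 ± 0.63 in MTMs. TAM minus MTM was -0.66 ± 0.63 in MYC mice, where the groups did not overlap, and -0.20 ± 0.56 in control mice. Leaving out control TAM mouse 5 gave -0.53 for MYC minus control in TAMs, and leaving out control MTM mouse 5 gave 0.18 for MYC minus control in MTMs and 0.45 for TAM minus MTM in control mice.

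Levels of Hbegf and Areg were set beside those of the genes nearest to them over the 11 libraries and beside other cell types. Among 8746 named genes with a mean of 1 or more, each centred on its own mean, the nearest to Hbegf was Egr1, an immediate-early transcription factor, at a root mean square difference of 0.34, where Hbegf itself varied by 0.84 about its mean. Nlrp3, an inflammasome sensor (0.35), and Cdca8, a mitotic chromosomal protein (0.36), followed. Areg (0.77 about its mean) was nearest to Egr1 (0.43), Tmsb15b2, of the thymosin beta family (0.44), and Rcan1, a calcineurin regulator (0.45). Egr1 was at 2.00, 1.64 and 1.54 in the libraries labelled MYC TAM, 1.94, 3.65 and 3.38 in control TAMs, 2.13 and 2.60 in MYC MTMs and 2.50, 2.48 and 3.73 in control MTMs. Like Hbegf, it was low in the libraries labelled MYC TAM and in control TAM mouse 1. Tmsb15b2 was at 0.23, 1.47 and 0.60 in the libraries labelled MYC TAM of mice 2, 4 and 6, against 0.53 to 2.17 in control TAMs. Rcan1 was at 2.82, 3.17 and 2.46, against 3.07 to 3.50. In mouse 4, where Areg had no reads, both lay within their control TAM ranges.

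Mean levels of the epithelial markers were 3.59, 2.59 and 1.53 in the libraries labelled MYC TAM of mice 2, 4 and 6, and 4.08, 5.02 and 4.30 in control TAMs of mice 1, 3 and 5. MTMs had 3.73 and 3.60 in MYC mice and 3.86, 4.40 and 3.95 in control mice. T and NK markers averaged 0.10, 0.40 and 0.15 in libraries labelled MYC TAM and 2.64, 1.75 and 1.87 in control TAMs, with 0.40 and 1.09 in MYC MTMs and 1.45, 1.64 and 1.54 in control MTMs. Both marker lists were lower in all 3 libraries labelled MYC TAM than in any control TAM. Control TAM mouse 1, low in Hbegf and Areg, was the highest in T and NK markers and the lowest of the control TAMs in epithelial ones. The part of other cell types in the levels of Hbegf and Areg was not tested.

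**Figure D2:**
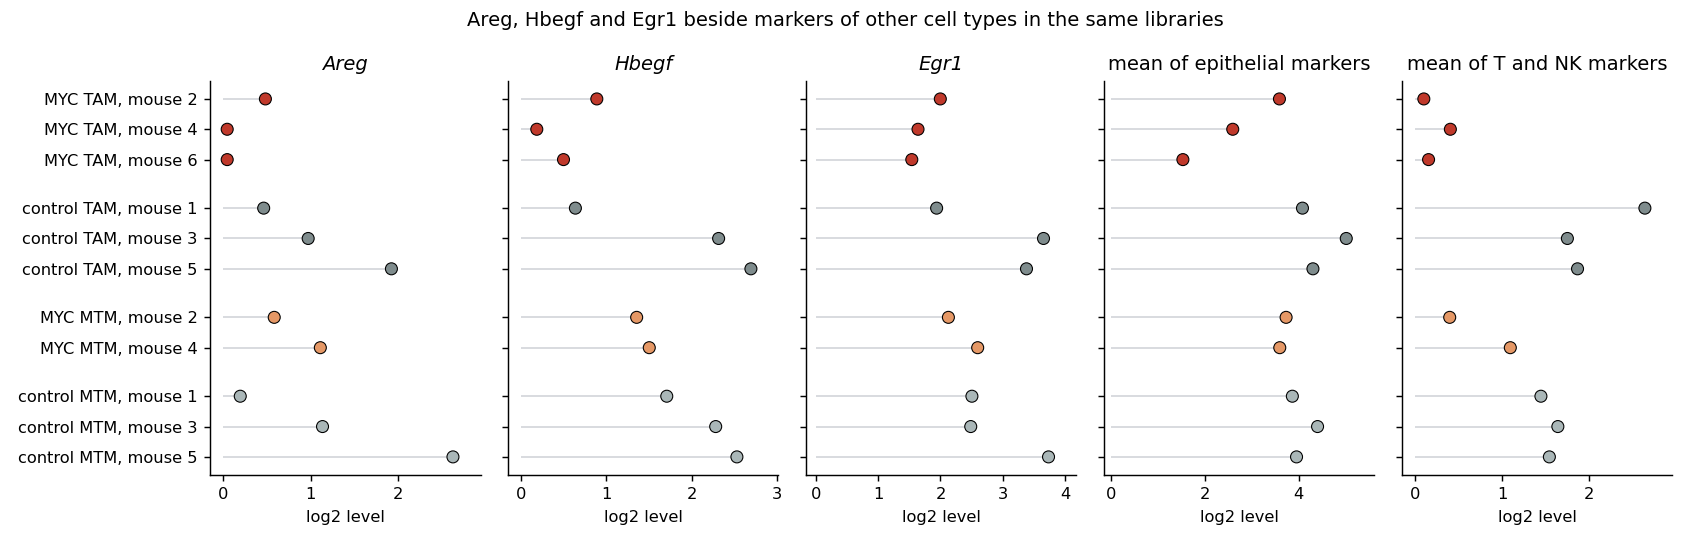
Log2 level of Areg, Hbegf and Egr1, and mean log2 level of 12 epithelial and 9 T and NK cell markers (horizontal axes), in each of the 11 libraries (rows, from MYC TAM to control MTM). The 3 libraries labelled MYC TAM are low in all 5 panels except for the epithelial mean of mouse 2 (3.59), and control TAM mouse 1 is low in the 3 genes but highest in T and NK markers (2.64).

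Among the angiogenic and stromal ligands, Vegfa and Pdgfb ranged over 0.96 and 0.90 across the 11 libraries, and Pdgfa and Pdgfc over 1.25 and 1.58. Vegfa (chr17:46016993-46032369, minus strand) was at 0.62, 1.28 and 0.61 in the libraries labelled MYC TAM of mice 2, 4 and 6, against 0.64, 0.52 and 0.64 in control TAMs. In MTMs it was at 0.51 and 0.78 in MYC mice, against 0.45, 0.67 and 0.32 in control mice. The library of mouse 4 labelled MYC TAM was the highest of all 11, and every other library lay between 0.32 and 0.78. MYC minus control in TAMs was 0.24 ± 0.19 (interval -0.18 to 0.66), and 0.014 without that library. In MTMs it was 0.16 ± 0.21. After median centring the difference in TAMs was 0.44 ± 0.16 (adjusted p by limma 0.0580), where the median over all genes was 0.19.

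Pdgfa (chr5:138976014-138997370, minus strand), which makes the PDGF A chain, was at 1.91, 2.82 and 2.54 in the libraries labelled MYC TAM, against 2.51, 2.11 and 2.07 in control TAMs. MTMs had 2.07 and 2.24 in MYC mice, against 1.57, 1.84 and 1.77 in control mice. Control MTMs were the lowest group and overlapped with neither control TAMs nor MYC MTMs. TAM minus MTM in control mice was 0.51 ± 0.25 (interval -0.05 to 1.07, adjusted p by limma 0.496), and within mice 1, 3 and 5 the TAM library was higher by 0.95, 0.28 and 0.30. MYC minus control in MTMs was 0.43 ± 0.28 (adjusted p by limma 0.710) and in TAMs 0.19 ± 0.25. The last of these was -0.011 without the library labelled MYC TAM of mouse 4.

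Pdgfb (chr15:79995874-80014977, minus strand), which makes the B chain bound by both PDGF receptors, was at 0.91, 0.99 and 0.60 in the libraries labelled MYC TAM, against 0.92, 1.32 and 1.43 in control TAMs. It was at 0.78 and 0.58 in MYC MTMs, against 0.74, 0.99 and 1.48 in control MTMs. The MYC and control groups overlapped in each cell type. The difference of MYC minus control was -0.39 ± 0.22 in TAMs and -0.39 ± 0.25 in MTMs.

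Pdgfc (chr3:81036416-81214040, plus strand), a PDGF that proteases must cut before it binds its receptor, was at 1.49, 1.07 and 2.24 in the libraries labelled MYC TAM, against 1.77, 2.00 and 2.24 in control TAMs. It was at 1.86 and 2.65 in MYC MTMs, against 1.75, 2.16 and 1.77 in control MTMs. All 4 groups overlapped with their neighbours in the order of means. TAM minus MTM was -0.66 ± 0.36 in MYC mice (-0.37 within mouse 2 and -1.58 within mouse 4) and 0.11 ± 0.33 in control mice. The difference between these was -0.77 ± 0.49 (interval -1.86 to 0.33).

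Tgfb1 (chr7:25687002-25705077, plus strand), the TGF-beta isoform best known from immune cells, varied least between groups. It was at 1.80, 1.25 and 1.39 in the libraries labelled MYC TAM, against 1.53, 1.88 and 1.55 in control TAMs, and at 1.32 and 1.78 in MYC MTMs, against 1.65, 0.94 and 1.45 in control MTMs. All groups overlapped. The difference between MYC and control was -0.17 ± 0.25 in TAMs and 0.20 ± 0.28 in MTMs. The sign in TAMs depended on the scaling, with 0.056 after quantile normalisation and 0.035 after each library was centred on its median.

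Of the factors that act on survival and growth, Igf1 and Hgf had wider ranges in TAMs than in MTMs. Igf1 (chr10:87858265-87937042, plus strand) was at 2.49, 2.69 and 3.20 in the libraries labelled MYC TAM, against 2.10, 1.17 and 2.67 in control TAMs. In MTMs it was at 2.36 and 2.69 in MYC mice, against 1.97, 2.22 and 2.76 in control mice. Control TAM mouse 3 was the lowest of all 11 libraries and the library labelled MYC TAM of mouse 6 the highest. MYC minus control in TAMs was 0.81 ± 0.38 (interval -0.04 to 1.66, adjusted p by limma 0.200), and in MTMs 0.21 ± 0.42. The value in TAMs was 0.41 without control TAM mouse 3 and 1.16 without control TAM mouse 5. In control mice TAM minus MTM was -0.34 ± 0.38, and it was 0.069 without control TAM mouse 3. An antisense gene, Igf1os, overlaps Igf1, and the strand setting of the read counting is not given in the sources used here, so reads of the pair cannot be told apart. Pdgfa, Pdgfb and Pdgfc overlap gene models on the other strand too, and Pdgfb and Hgf overlap gene models on their own strand (Mir7213, and Gm42975 and Gm43489), which stranded counting would not separate.

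Hgf (chr5:16553495-16620152, plus strand), the ligand of Met, was at 2.34, 2.48 and 3.39 in the libraries labelled MYC TAM, against 3.48, 2.78 and 3.56 in control TAMs. MTMs had 2.96 and 3.12 in MYC mice, against 2.79, 2.62 and 3.18 in control mice. Within mice, the TAM library was lower than the MTM library in MYC mice 2 and 4 (-0.62 and -0.64) and higher in control mice 1, 3 and 5 (0.69, 0.16 and 0.38). With the mouse as a fixed replicate block, which rests on these 5 pairs, TAM minus MTM was -0.63 ± 0.20 in MYC mice and 0.41 ± 0.16 in control mice, and the difference between them -1.04 ± 0.26 (adjusted p by limma 0.169). Over all 11 libraries without the block, which adds the library labelled MYC TAM of mouse 6, it was -0.30 ± 0.35 in MYC mice, and the difference of differences was -0.71 ± 0.47 (interval -1.77 to 0.34, adjusted p by limma 0.697). For MYC minus control, Hgf had -0.53 ± 0.31 in TAMs and 0.18 ± 0.35 in MTMs. The value in TAMs was -0.34 without the library labelled MYC TAM of mouse 2 and -0.86 (adjusted p by limma 0.0606) without that of mouse 6.

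Grn, the most abundant of the factors, was highest in MTMs of MYC mice. Grn (chr11:102430315-102437048, plus strand) was at 8.42, 8.25 and 8.997 in the libraries labelled MYC TAM, against 8.23, 8.04 and 8.37 in control TAMs. In MTMs it was at 9.17 and 9.27 in MYC mice, against 8.46, 8.21 and 8.46 in control mice. Both MYC MTM libraries exceeded all other 9 libraries, and the other 3 groups overlapped with their neighbours in the order MYC TAM (8.56), control MTM (8.38) and control TAM (8.21).

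For Grn, MYC minus control in MTMs was 0.84 ± 0.23 (SE; interval 0.33 to 1.35), or 1.79 times the control level, with an unadjusted p of 0.0044 and an adjusted p of 0.179 by limma. The difference was 0.76 to 0.89 with each library left out in turn and 0.96 after median centring. TAM minus MTM in MYC mice was -0.66 ± 0.23 (interval -1.17 to -0.15, adjusted p by limma 0.160). It was -0.75 within mouse 2 and -1.02 within mouse 4. After median centring and after quantile normalisation it was -0.49 (adjusted p by limma 0.308 and 0.5). Without the library labelled MYC TAM of mouse 4 it was -0.51 (0.280). Without mouse 6, whose TAM library was the highest of its group and which has no MTM library here, the difference was -0.88 with an adjusted p by limma of 0.0216 when the pairing by mouse was ignored. With the mouse as a fixed replicate block, which gives the same difference from the same pairs, the adjusted p was 0.0543. In control mice TAM minus MTM was -0.16 ± 0.20, lower in TAMs of each of the 3 mice (-0.23, -0.17 and -0.09). MYC minus control in TAMs was 0.34 ± 0.20, and 0.12 without mouse 6. The gene Fam171a2 on the other strand overlaps Grn.

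The genes nearest to Grn over the 11 libraries, among the same 8746, were Rai14, an actin-associated protein, at a root mean square difference of 0.17 where Grn varied by 0.40 about its mean, Pgam1, a glycolytic enzyme (0.18), and Wdr19, a protein of ciliary transport (0.22). Pgam1 was at 6.71, 6.44 and 7.17 in the libraries labelled MYC TAM, 6.08, 6.44 and 6.76 in control TAMs, 7.11 and 7.31 in MYC MTMs and 6.34, 6.40 and 6.45 in control MTMs. It was high in both MYC MTM libraries and in mouse 6, as Grn was.

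The 10 factors were also counted by whether the ranges of the groups met. In TAMs, MYC against control, 0 of the 10 were without overlap, where 30.1% of all genes were. In MTMs 3 were without overlap in MYC against control (Pdgfa and Grn higher, Hbegf lower), where 31.2% of all genes were. In MYC mice 3 were without overlap between TAMs and MTMs (Hbegf, Areg and Grn, lower in TAMs), where 30.4% of all genes were. In control mice 1 was, Pdgfa, higher in TAMs, where 18.9% of genes were. Such shares are near those of all genes or rest on few factors. The median difference of the 10 factors was -0.28 for MYC minus control in TAMs, 0.19 in MTMs, -0.19 for TAM minus MTM in MYC mice and 0.11 in control mice, beside medians over all genes of -0.02, -0.02, -0.01 and 0.00. Over the 9375 genes with a mean of 1 or more, as 7 of the 10 factors have, the medians were -0.21, -0.06, -0.20 and -0.04. The medians of the 10 factors lay close to these in TAMs, MYC minus control, and in TAM minus MTM of MYC mice. They lay above these in MTMs, MYC minus control, and in TAM minus MTM of control mice. Pdgfb, Areg and Vegfa, of lower level, count in the medians of the factors only. Comparisons that share libraries are not independent of each other.

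**Figure D3:**
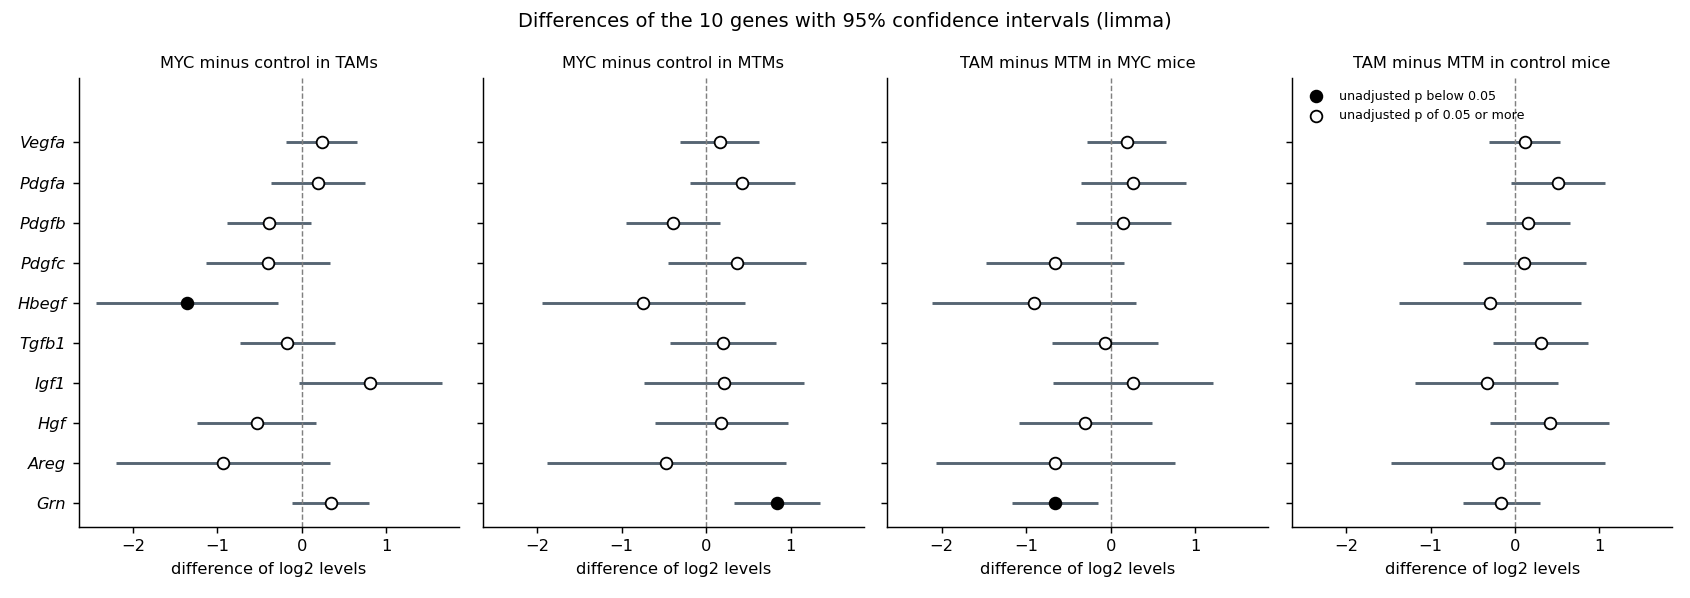
Difference of log2 levels (horizontal axis) of the 10 factors (rows) in 4 comparisons, with 95% confidence intervals from limma; filled points have an unadjusted p under 0.05. Filled points are Hbegf in TAMs (-1.36), Grn in MTMs (0.84) and Grn for TAM minus MTM in MYC mice (-0.66), and none of these passed after adjustment.

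**Figure D4:**
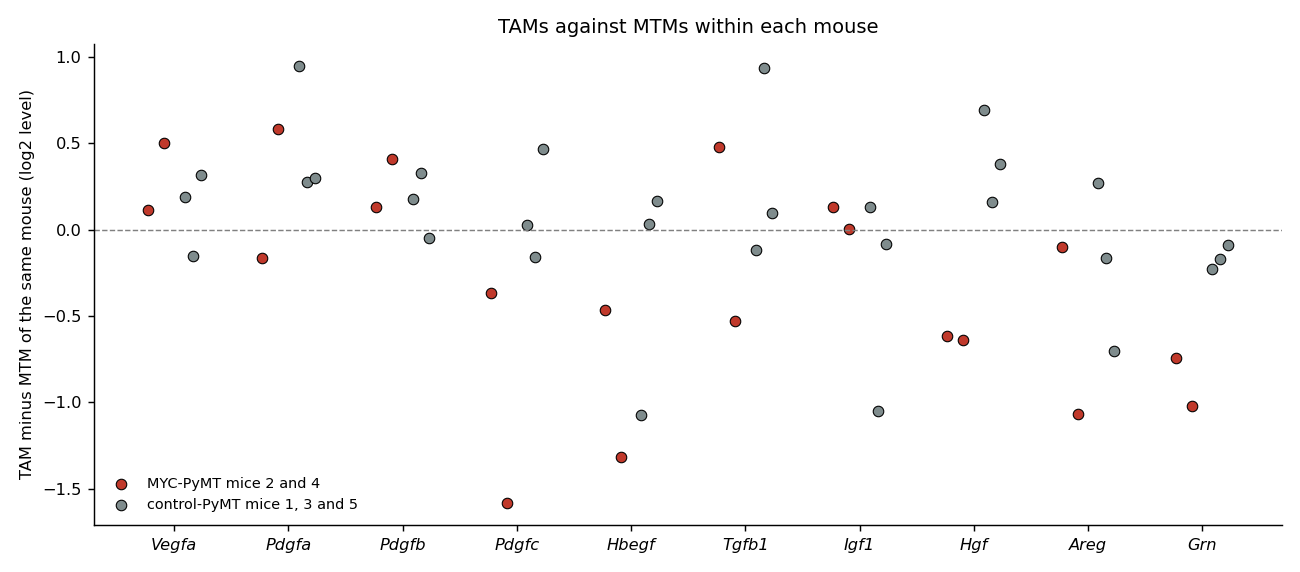
TAM minus MTM of the same mouse (vertical axis, log2 level) for each factor, with 1 point for each of MYC mice 2 and 4 and control mice 1, 3 and 5. Grn is below 0 in all 5 mice (-1.02 to -0.09), and Hgf is below 0 in both MYC mice and above 0 in the 3 control mice.

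None of the factors followed here passed, and genes around them did, other ligands included, most of them in TAMs, MYC against control. Whether the factors differed in this from the genes around them was not tested. Lists of related genes were counted against the share of all genes that passed in that comparison, 3.89% higher and 12% lower. With only the genes of a mean of 1 or more tested, a larger share passed there, 650 higher and 2006 lower of 9375. The lists were not matched to genes of their level. The 19 other ligands measured had 1 higher and 3 lower, with a median difference of -0.03. The 22 receptors had 3 higher and 9 lower (median -0.15), the 33 genes of release, activation and binding 2 higher and 13 lower (median -0.80), the 14 TGF-beta response genes 1 higher and 5 lower (median -0.08) and the 16 genes of hypoxia and Vegfa regulation 2 higher and 4 lower (median 0.13). The median over all genes was -0.02. When each library was centred on its median, 69.9% of the passing genes were higher, after quantile normalisation 41.6%, and without either 24.5%. Median centring moved the median of all genes to 0.19 in this comparison and to 0.15 for TAM minus MTM in MYC mice.

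Of the other ligands, Tgfb3, a TGF-beta isoform, fell to 2.02 in the libraries labelled MYC TAM, against 4.32 in control TAMs (difference -2.30 ± 0.45, adjusted p by limma 0.0080). Pgf, a VEGF-family ligand of Flt1, fell to 1.22, against 3.15 in control TAMs (-1.93 ± 0.43, 0.0139), and Tgfb2 to 0.19, against 1.42 (-1.22 ± 0.36, 0.0490). Nrg4, an ErbB4 ligand, was higher, at 0.45 against 0.03 in control TAMs (0.42 ± 0.08, 0.0088). The adjusted p of Pgf was 0.0591 without control TAM mouse 3 and 0.0561 without mouse 5, and no other library ended that call. Tgfb2 missed the threshold in 10 of the 11 fits with a library left out (up to 0.157, without control TAM mouse 3), under quantile normalisation (0.0617) and with only the groups compared (0.0725). Nrg4 missed it with only the groups compared (0.0551).

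Of the receptors, Flt1, the VEGF receptor that binds Vegfa and Pgf, rose to 0.90 in the libraries labelled MYC TAM, against 0.19 in control TAMs (0.71 ± 0.10, adjusted p by limma 0.00117). Egfr, the receptor for Hbegf and Areg, fell to 0.08, against 1.35 (-1.27 ± 0.20, 0.00298), and its partner Erbb2 to 0.49, against 2.62 (-2.13 ± 0.35, 0.00355). Acvrl1, a receptor of the TGF-beta family, fell to 3.64, against 5.15 (-1.51 ± 0.27, 0.00508). Epithelial markers fell in the same comparison, as counted above, and their part in the lower levels of Egfr, Erbb2, the ligands above and Spint1 below was not tested.

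Transcripts of several proteins that release or hold the ligands moved in the same libraries. Spint1, an inhibitor of the proteases that activate Hgf, fell to 2.39 in the libraries labelled MYC TAM, against 6.02 in control TAMs (-3.63 ± 0.22, adjusted p by limma 1.76e-05). Adam10, a sheddase of EGF-family ligands, fell to 4.93, against 6.42 (-1.49 ± 0.20, 0.00113), and Itgb8, an integrin chain that activates latent TGF-beta, to 0.03, against 0.47 (-0.44 ± 0.07, 0.00218). Furin, a convertase that cuts TGF-beta and PDGF precursors, rose to 4.83, against 2.80 (2.03 ± 0.35, 0.00412). The call for Itgb8 did not hold after median centring (adjusted p 0.130).

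TGF-beta response genes named by the rule were all lower, though 1 of the 14 listed passed as higher and the median of the list was -0.08. Tgfbi, a TGF-beta-induced matrix protein, fell to 7.51 in the libraries labelled MYC TAM, against 10.01 in control TAMs (-2.50 ± 0.27, adjusted p by limma 0.000382). The SMAD corepressors Skil and Ski fell by 1.50 and 1.04 on the log2 scale (0.000686 and 0.00353), and Ctgf, a matricellular protein, by 1.45 (0.0120, and 0.0653 with only the groups compared). Among genes of hypoxia and Vegfa regulation, Car9, a hypoxia-induced carbonic anhydrase, fell by 1.84 (0.000216) and Vhl, which marks HIF proteins for degradation, by 1.20 (0.000743). Ndrg1, induced by hypoxia, rose by 1.83 (0.00172) and Epas1, which encodes HIF-2 alpha, by 2.26 (0.00753). With each library left out in turn, 18 of the 20 genes named in this comparison stayed past the threshold, the exceptions being Pgf and Tgfb2. All of these directions in TAMs rest on the libraries labelled MYC TAM, whose Vcam1 levels were low. In MTMs, MYC against control, Nrg4, Furin, Ndrg1 and Epas1 were higher without overlap, where 31.2% of all genes did not overlap. Epas1 was at 1.90 and 2.46 in MYC MTMs, against 0.53 to 1.18 in control MTMs. Tgfb2, Tgfb3, Pgf, Erbb2, Spint1, Adam10, Itgb8 and Skil were lower without overlap. Tgfbi went the other way, and Flt1, Egfr, Acvrl1, Ski, Ctgf, Car9 and Vhl overlapped. None of these passed in MTMs.

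**Figure D5:**
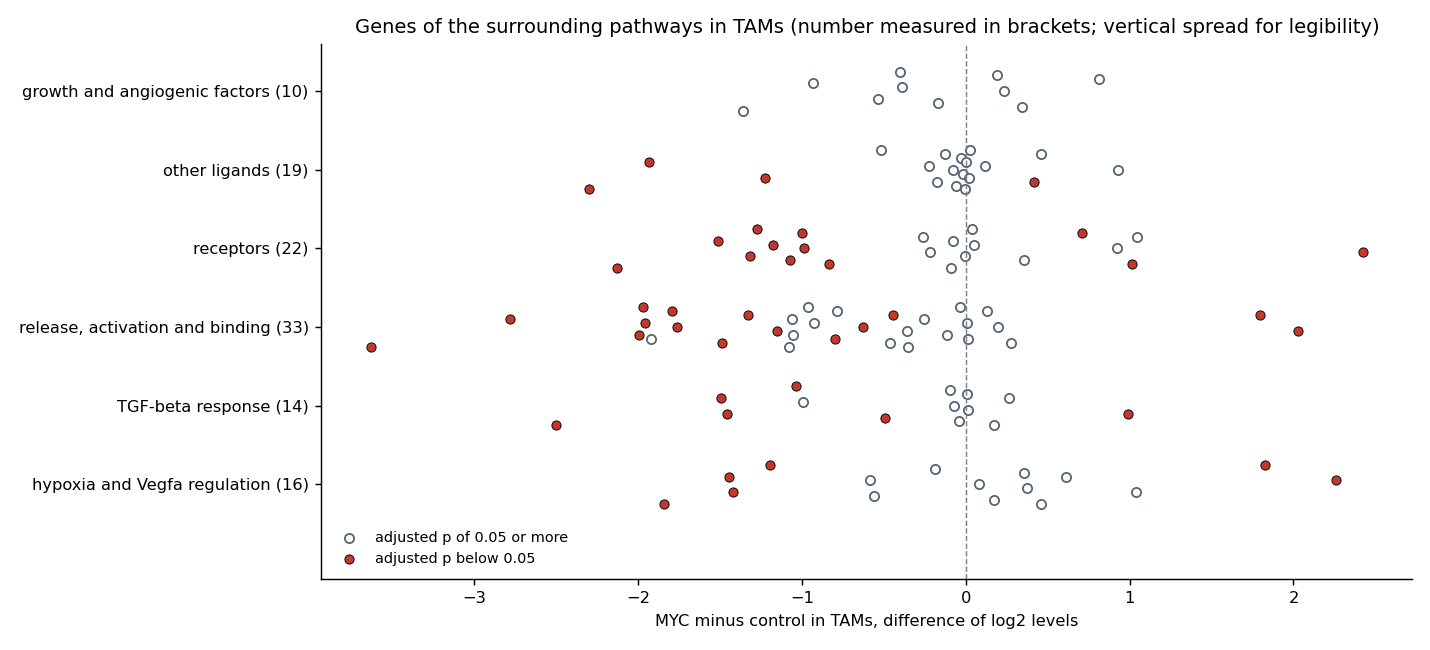
MYC minus control in TAMs (horizontal axis, difference of log2 levels) for each measured gene of 6 lists (rows); filled points have an adjusted p under 0.05. None of the 10 factors is filled. Of the 33 genes of release, activation and binding, 2 higher and 13 lower are filled, from -3.63 for Spint1 to 2.03 for Furin.

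In TAMs against MTMs, Igfbp4 passed in both genotypes under every alternative run. Igfbp4, which binds Igf1, was at 0.78 in the libraries labelled MYC TAM, against 3.56 in MYC MTMs (-2.77 ± 0.24, adjusted p by limma 0.00058), and at 1.58 in control TAMs, against 3.54 in control MTMs (-1.96 ± 0.21, 0.00134). Igfbp6, another IGF binding protein, had -1.72 ± 0.34 in MYC mice (0.0214) and -2.05 ± 0.30 in control mice (0.00671). With only the groups compared, Igfbp6 missed the threshold in MYC mice (0.0735) and in control mice (0.0934), and it missed it in MYC mice after quantile normalisation (0.0579). Mmp9, a protease that frees matrix-bound VEGF, had -1.57 ± 0.31 in MYC mice (0.0212) and -2.11 ± 0.27 in control mice (0.00336). Spint1 was higher in control TAMs than in control MTMs by 1.65 ± 0.22 (0.00433, and 0.0681 with only the groups compared). In control mice the release list had 2 higher and 3 lower of 33 (background 0.744% and 1.62%), and the other 4 lists had none.

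In MYC mice, TAMs against MTMs, the lists had 0 higher and 0 lower of 19 other ligands, 1 and 3 of 22 receptors, 0 and 4 of 33 release genes, 0 and 2 of 14 TGF-beta response genes and 0 and 3 of 16 hypoxia genes, where 0.664% of all genes were higher and 3.82% lower. Of the passing genes 14.8% were higher, 30.0% after quantile normalisation and 35.8% after median centring. Flt1 was higher by 0.68 ± 0.11 (adjusted p by limma 0.00718). Egfr was lower (-1.37 ± 0.23, 0.0104), as were the VEGF coreceptor Nrp1 (-1.47 ± 0.33, 0.0372), Tgfbr2, a TGF-beta receptor (-0.87 ± 0.20, 0.0390), and Adam10 (-1.38 ± 0.22, 0.00854). Tgfbi (-2.34 ± 0.31, 0.00325), Skil (-0.87 ± 0.21, 0.0449), Car9 (-1.03 ± 0.20, 0.0230), Bnip3, a hypoxia-induced mitophagy gene (-0.86 ± 0.17, 0.0248), and Hif1a, the hypoxia-inducible factor (-0.95 ± 0.21, 0.0331), were lower too. Of the 13 genes named here, Igfbp4 and Tgfbi stayed past the threshold with each library left out in turn. Without MYC MTM mouse 2, 11 of the 13 missed it (adjusted p 0.0927 to 0.280), and without MYC MTM mouse 4, 10 did (0.0643 to 0.230). In each of those fits the lone remaining MYC MTM library is assumed to vary like the other groups. With the mouse as a fixed replicate block, Egfr (0.0734), Mmp9 (0.0785), Skil (0.122), Car9 (0.0638) and Bnip3 (0.0696) missed it. With only the groups compared, 11 of the 13 missed it (0.0735 to 0.269), Tgfbi among them (0.101). Median centring ended 6 of the calls (Nrp1, Tgfbr2, Skil, Car9, Bnip3 and Hif1a, 0.0521 to 0.115) and quantile normalisation 5 (Nrp1, Tgfbr2, Skil, Hif1a and Igfbp6, 0.0579 to 0.124).

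In MTMs, MYC against control, 1 gene of all 5 lists passed. Bnip3 rose to 7.07 in MYC MTMs, against 5.99 in control MTMs (1.08 ± 0.17, adjusted p by limma 0.0334), where 0.338% of all genes were higher. Its adjusted p was 0.319 without MYC MTM mouse 2, 0.165 without mouse 4, 0.0557 to 0.0885 without any 1 of the 3 control MTMs or control TAM mouse 1, and 0.106 with only the groups compared.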

How the data were processed

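The authors deposited 1 table of log2 expression values for 17475 genes in 11 libraries. The submitters' processing notes name HISAT2, DESeq2 and mm10 (GRCm38.p5) without their roles. Per the labels' protocols, 500 ng of RNA (RIN values 3.3 to 9.6) went into poly-A selection and stranded libraries with 8 PCR cycles. The formula of the values was inferred: they behaved as the log2 of x plus 1.0003, x being reads scaled for depth and length. All 10838 of 10838 low values tested were whole reads within a tolerance of 0.05, which gave the depths, with exon lengths from GENCODE M21 (GRCm38) for 93.4% of genes. The spacing and zero of each library were fitted to these same values, so the count is not a check on separate values. Coordinates are from that annotation.

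Group means were fitted to all 11 libraries with limma 3.58.1 in R 4.3.3, with variances that follow a trend with level. The tests were two-sided, adjusted by Benjamini-Hochberg over 17475 genes, with a threshold of 0.05. Replicates are separate mice. TAMs and MTMs with a mouse number come from the same mouse, per the labels. Across genes, the deviations of such pairs from their group means had correlations of 0.109 and 0.0523 in MYC mice and 0.157, 0.184 and 0.0685 in control mice. Pairs of different mice had -0.109 to 0.0544 in MYC mice and -0.167 to 0.00687 in control mice. Deviations of the 2 MYC MTM libraries mirror each other, so these values cannot check the pairing in MYC mice. In control mice the values of different mice are pushed down by construction. Fits with the mouse as a block were alternatives, beside a level filter, another pseudocount, other scalings, only the groups compared, and each library left out.

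The 10 factors and the gene lists were chosen with earlier results of these data known. Of the listed genes, Vegfd, Ereg, Igf2, Igfbp1 and Pappa have no row. All 10 factors are named. From each list, up to 4 genes with the smallest adjusted p past the threshold are named per comparison, and for the 3 factors with the widest span of group means the 3 nearest genes by root mean square difference. The fit was tested on simulated data. Promoter sequences are from RefSeq (GRCm38.p6), which has windows for 8 of the 10 factors.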

Additional observations from a re-analysis of the deposited data

Results flagged for a closer look

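For 4 genes of the lists the TAM minus MTM difference was not the same in MYC and control mice, by limma's test of the difference of differences with Benjamini-Hochberg adjustment over all genes (1.24% of all genes passed). In Tgfbi it was -2.99 ± 0.41 (SE; adjusted p 0.0129). Tgfbi was at 8.17, 7.36 and 6.99 in the libraries labelled MYC TAM, against 9.91 and 9.79 in MYC MTMs, and at 9.94, 10.2 and 9.86 in control TAMs, against 9.49, 9.43 and 9.15 in control MTMs.

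Spint1 had a difference of -2.34 ± 0.34 (0.0148), with 2.15, 2.38 and 2.65 in the libraries labelled MYC TAM, against 3.10 and 3.08 in MYC MTMs, and 6.18, 6.12 and 5.76 in control TAMs, against 3.92, 4.49 and 4.71 in control MTMs. Car9 had -1.52 ± 0.27 (0.0347), with 2.12, 2.48 and 2.51 in the libraries labelled MYC TAM, against 3.53 and 3.28 in MYC MTMs, and 3.98, 4.43 and 4.21 in control TAMs, against 3.50, 3.79 and 3.86 in control MTMs. Flt1 had 0.77 ± 0.14 (0.0377), with 0.82, 0.85 and 1.03 in the libraries labelled MYC TAM, against 0.19 and 0.25 in MYC MTMs, and 0.06, 0.26 and 0.25 in control TAMs, against 0.19, 0.24 and 0.41 in control MTMs.

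All 4 missed the threshold without MYC MTM mouse 2 (adjusted p 0.0802 to 0.194) or mouse 4 (0.0750 to 0.160), and with the mouse as a fixed replicate block (0.0541 to 0.112). Flt1 missed it also with a pseudocount of 0.25 (0.0663), after quantile normalisation (0.167) and after median centring (0.0983), and Car9 after median centring (0.0556). Both missed it without the library labelled MYC TAM of mouse 2 (0.0512 and 0.0587) or mouse 4 (0.0503 and 0.0543). Flt1 further missed it with each control library left out in turn (0.0576 to 0.101). Car9 did so with each control MTM left out, and without control TAM mouse 3 or 5 (0.0507 to 0.0871). Every one of these comparisons has the libraries labelled MYC TAM, low in Vcam1, on 1 side.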

How the results depend on the processing

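Of 855 alternative values of the 10 factors, 34 changed sign and 3 newly passed the threshold, as given beside Hbegf and Grn. Leaving out 1 library moved 40 of the 50 differences of the factors by over 1.5 times in at least 1 fit. The number of factors past the threshold was 1 with the filter of a mean of 1 or more in TAMs, MYC against control (Hbegf), and 0 to 1 with each library left out in TAMs, MYC against control, and in TAM against MTM of MYC mice. Tgfb1 changed sign under quantile normalisation (0.12) and median centring (0.097) in TAM minus MTM of MYC mice, and likewise in TAMs, MYC minus control (0.056 and 0.035). For Pdgfb the difference of differences (-0.0008) was 0.020 with a pseudocount of 0.25, 0.051 under quantile normalisation and 0.089 under median centring, 0.12 with a fixed and 0.014 with a random replicate block. With each library left out, TAM minus MTM in control mice ran from -0.012 to 0.36 for Pdgfb, -0.0063 to 0.24 for Pdgfc, -0.70 to 0.33 for Hbegf, -0.68 to 0.069 for Igf1 and -0.76 to 0.45 for Areg. In MYC mice it ran from -0.030 to 0.33 for Vegfa and -0.30 to 0.16 for Tgfb1. MYC minus control ran from -0.011 to 0.44 for Pdgfa in TAMs, and in MTMs from -0.028 to 0.76 for Pdgfc, -0.025 to 0.43 for Tgfb1 and -1.04 to 0.18 for Areg. The difference of differences ran from -0.15 to 0.21 for Vegfa, -0.44 to 0.017 for Pdgfa, -0.20 to 0.16 for Pdgfb and -1.11 to 0.11 for Areg.

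Genes past the threshold numbered 2778 in TAMs, MYC against control, 5029 under median centring, 1547 with only the groups compared and 1734 to 2996 with each library left out. In MTMs they numbered 108, with 0 from only the groups compared and 23 to 128 with each library left out. TAM against MTM gave 784 in MYC mice (90 with only the groups compared, 476 with the fixed replicate block, 163 to 1031 with each library left out) and 414 in control mice (196, 255 and 214 to 537). The difference of differences gave 216 (327 with the filter, 129 under median centring, 31 with the fixed and 325 with the random block, 21 to 301 with each library left out). Of the calls in the difference of differences, 19.4% were higher, and 29.5% under median centring. The fixed block gives no value for MYC against control within a cell type. Beyond the calls given, the replicate blocks changed no call of the named genes. The cause of these changes was not tested. With 2 or 3 libraries a group, intervals of the factors reached up to 2.44 from 0, and Areg and Vegfa rest on at most 177 and 150 reads.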
